A study of Mus musculus with 69 samples.

Results

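The arrays described here show what mouse embryonic stem (ES) cells expressed 96 h after an *Oct3/4* transgene was switched on. They are the ZHTc6 samples labelled 96 h without tetracycline (Tet), each hybridised against 0 h RNA of the same line, and they were taken by these labels alone. They make up 6 of the 69 arrays of the series, that is 3 samples, each run once with the 96 h RNA in Cy5 and once with it in Cy3.

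The study asked which genes follow Oct3/4 up or down in ES cells. ZHTc6 cells come from CGR8 ES cells, have 1 disrupted allele of *Pou5f1* (the gene of Oct3/4) and carry a Tet-regulated *Oct3/4* transgene that stays off in Tet and is switched on by taking Tet away. ZHBTc4 cells were made from ZHTc6 by disrupting the other allele, so that the transgene is their only working copy and addition of Tet shuts it off. Samples were taken daily from 24 to 120 h, and each line is 1 clone, so that a line and its clone cannot be told apart. The 0 h samples of ZHTc6 are cells kept in Tet and those of ZHBTc4 are cells kept without it. All were grown without feeder cells on gelatin in medium with leukemia inhibitory factor (LIF). The Methods describe the samples of a time point as prepared independently, and the p-values measure the spread between these samples of 1 clone.

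Oct3/4 is a POU-domain transcription factor that binds DNA at the octamer motif, often next to Sox2, and keeps the genes of the undifferentiated state on. It acts within a narrow window of dose. ES cells with too little of it turn towards trophoblast, the outer lineage of the placenta, and ES cells with too much leave the undifferentiated state as well. The primitive streak is the structure at which cells of the early embryo move inwards and become mesoderm and definitive endoderm, and its genes answer to Nodal, Wnt, FGF and BMP signals.

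Values are log2 ratios of 96 h over 0 h, averaged over the dye-swapped pair, so that 1 is a doubling, and 3 values are given in the order of replicates 1, 2 and 3. A ratio gives no level, so that genes are compared in how much they changed and never in how abundant they were, and the identity of the cells was checked only through changes. A change was called with limma at a Benjamini-Hochberg adjusted p under 0.05. Of 20606 features (5189 named genes and oligos without a name) 7149 were called, which is 34.7%. Of these 3792 were higher (18.4%) and 3357 lower (16.3%), 488 by 2-fold or more upwards and 153 by 2-fold or more downwards. Among named genes 51.8% were called, 35.7% higher and 16.1% lower, so that the genes that carry a name here rose more often than the arrays as a whole. Part of the names came from study tables of genes picked for change on these same arrays. The counts over gene lists below are thus a description.

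The averages of the 3 samples correlated with r of 0.752, 0.795 and 0.852 across features, which are not independent replicates. The 2 arrays of a pair correlated less, with r of 0.449, 0.53 and 0.414. Different samples in the same dye orientation had r of 0.668 to 0.82. The means of both orientations correlated with r = 0.532, and 162 called features had means of opposite sign in them. In 6570 of the called features (91.9%) all 6 arrays went one way. Leaving out replicate 1, 2 or 3 left 3585, 3918 and 3610 called features.

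**Figure D1:**
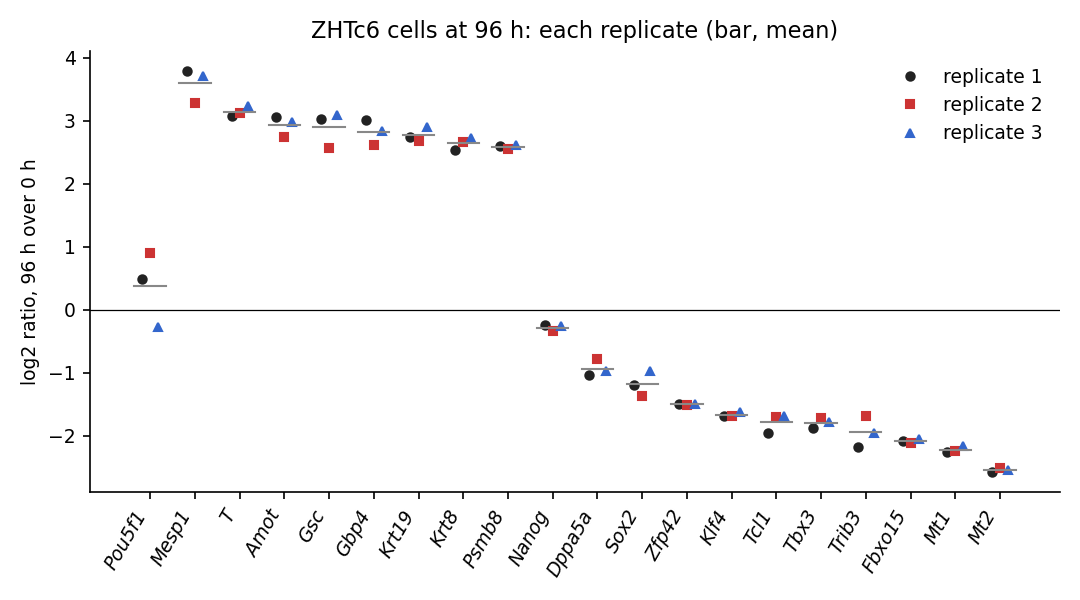
Log2 ratio of 96 h over 0 h (y axis) for *Pou5f1*, 8 of the genes that rose most and 11 pluripotency, stress and metallothionein genes below 0 (x axis), with a symbol for each of the 3 replicates and a bar for their mean. The 3 samples of *Mesp1* sit between 3.29 and 3.79 and those of *Mt2* between -2.57 and -2.50, while those of *Pou5f1* lie on both sides of 0.

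*Pou5f1*, the gene that the design switches, was read first. It measured 0.49, 0.90 and -0.27 in the 3 samples, with a mean of 0.37 ± 0.594 (SD, n = 3, adjusted p = 0.247), and thus was not called. Replicates 1 and 2 lay above 0 and replicate 3 below, so that the samples do not share a direction. Without replicate 3 the mean was 0.70 (adjusted p = 0.0538). At 72 h the samples stood at 1.30, 1.56 and -0.07 and at 120 h at 0.63, 0.65 and 0.79, against -2.78, -3.04 and -2.42 in ZHBTc4 cells after 96 h with Tet. The lines differed by 3.12, SE 0.32, adjusted p = 0.00071. In ZHBTc4 cells the transgene is the only working copy, so that the *Pou5f1* oligo, which fell there with Tet, reads the transgene. The sequence of the oligo was not used here, and whether it also reads the intact allele of ZHTc6 is not known.

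Most measured genes of the undifferentiated state fell. Of 50 genes listed for pluripotency 39 were measured, of which 33 fell, 1 rose and 5 were not called, with a median of -0.85 against -0.025 over all features and 0.10 over named genes. Over the 19 members that the annotation of the arrays names by itself the median was -0.45. *Fbxo15*, an F-box gene that marks undifferentiated cells, fell most, with -2.09, -2.12 and -2.04 (mean -2.08 ± 0.039, SD, n = 3, adjusted p = 4.84e-05), which is 4.23-fold. *Tbx3*, a T-box factor of self-renewal, had -1.88, -1.72 and -1.77 (mean -1.79 ± 0.079, SD, n = 3, adjusted p = 4.84e-05). *Tcl1*, a cofactor of the kinase Akt, had -1.95, -1.70 and -1.68 (mean -1.77 ± 0.15, SD, n = 3, adjusted p = 9.09e-05). These 3 genes were picked as largest falls with all 6 arrays below 0, and the 3 samples of each lay close together. *Klf4*, a factor downstream of LIF, fell by 1.66 (adjusted p = 8.73e-05) and *Zfp42*, also called Rex1, by 1.50 (adjusted p = 0.000144).

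*Sox2*, the partner of Oct3/4 on DNA, measured -1.19, -1.36 and -0.97 (mean -1.18 ± 0.19, SD, n = 3, adjusted p = 0.000267). *Esrrb*, a nuclear receptor of the same network, averaged -0.95 and *Dppa5a*, an RNA-binding protein of ES cells, -0.93. *Spp1*, the secreted osteopontin, fell by 1.34, *Tdh*, a threonine-degrading enzyme used by ES cells, by 1.25, and *Utf1*, a chromatin protein, by 1.20. *Nanog* was not called. Its samples stood at -0.24, -0.34 and -0.26, all below 0, with a mean of -0.28 ± 0.055 (SD, n = 3) and an adjusted p of 0.0779. The fit behind this p-value also held the ZHBTc4 samples, in which the SD of *Nanog* was 0.27. *Nanog* was called with the ZHTc6 samples fitted alone (adjusted p = 0.0112) and with scaled arrays (adjusted p = 0.00938). The 1 member that rose was *Cdh1*, the epithelial E-cadherin, at 0.82 (adjusted p = 0.00114). Of the 7 genes listed as markers of undifferentiated ES cells, 6 fell and *Nanog* was not called.

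The start regions of these genes were read for the letters that Oct3/4 is known to bind. RefSeq promoters on GRCm38.p6, from 250 bases before to 50 after the start, were found for 4103 of the named genes. Each stretch is given 5′ to 3′ on the strand of the gene with the match in capitals, on either strand. *Zfp42* (chr8:43307177-43307206, minus strand) and *Spp1* (chr5:104435971-104436000, plus strand) hold the octamer ATGCAAAT or its reverse complement and are shown as genes that fell. *Nanog* (chr6:122707408-122707437, plus strand) holds the joint Sox and octamer motif, a Sox site followed by the first letters (ATGC) of the octamer, with which it overlaps, read on the other strand, and is shown as the member that was not called.
Zfp42: tctgaagaggcATTTGCATaactgagcaag
Spp1: tcacatttgaaATGCAAATggaaaaagcaa
Nanog: gcttcttttGCATTACAATGtccatggtgg
The octamer occurs in 1.97% of all 27025 promoters, in 2.37% of those of genes called higher (35 of 1479) and in 1.98% of those called lower (13 of 655). The joint motif occurs in 18 promoters in all (0.0666%). A match describes the letters of this window and is not a measured binding site.

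Genes of the streak led the rises. Of 52 genes listed for primitive streak and mesoderm 17 were measured, of which 10 rose, 1 fell and 6 were not called (median 0.56). *Mesp1*, a factor of the earliest heart and mesoderm progenitors, measured 3.79, 3.29 and 3.71 (mean 3.60 ± 0.27, SD, n = 3, adjusted p = 0.000273), 12.1-fold over 0 h and the largest rise of any named gene. *T*, the T-box factor Brachyury of the streak, measured 3.08, 3.13 and 3.23 (mean 3.14 ± 0.078, SD, n = 3, adjusted p = 3.29e-05). The annotation of the arrays gives *Prr18* for its oligo and the study's tables give *T*, so that the name rests on the study. *Gsc*, a homeobox factor of the anterior streak, measured 3.03, 2.57 and 3.09 (mean 2.89 ± 0.29, SD, n = 3, adjusted p = 0.0002). These genes were picked as largest rises with all 6 arrays above 0, and *Mesp1* also by its difference from 72 h. None of their samples overlapped with those of 72 h, where *Mesp1* stood at 2.14, 1.46 and 2.11.

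*Lhx1*, a LIM homeobox factor of the organizer, spread more widely, with 3.28, 1.89 and 2.23 (mean 2.46 ± 0.73, SD, n = 3, adjusted p = 0.00131), and replicate 1 stood apart above the others. *Snai1*, a repressor of E-cadherin that drives the change from epithelium to mesenchyme, rose by 0.97 (adjusted p = 0.000577). *Pdgfra*, a receptor of mesoderm and primitive endoderm, rose by 1.43 (adjusted p = 0.000216). *Bmp4* was the 1 member that fell, with a mean of -0.54 ± 0.051 (SD, n = 3, adjusted p = 0.00569). *Hand1*, a factor of later mesoderm and of trophoblast giant cells, averaged 0.037 and was not called. The promoter of *Mesp1* holds the T-box half-site TCACACCT, which Brachyury binds, and is shown because both genes lead the list (chr7:79793567-79793596, minus strand).
Mesp1: aggggcccgctTCACACCTagggctcagga
These letters stand in 1.48% of all promoters, in 1.08% of those of genes called higher and in 1.37% of those called lower.

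**Figure D2:**
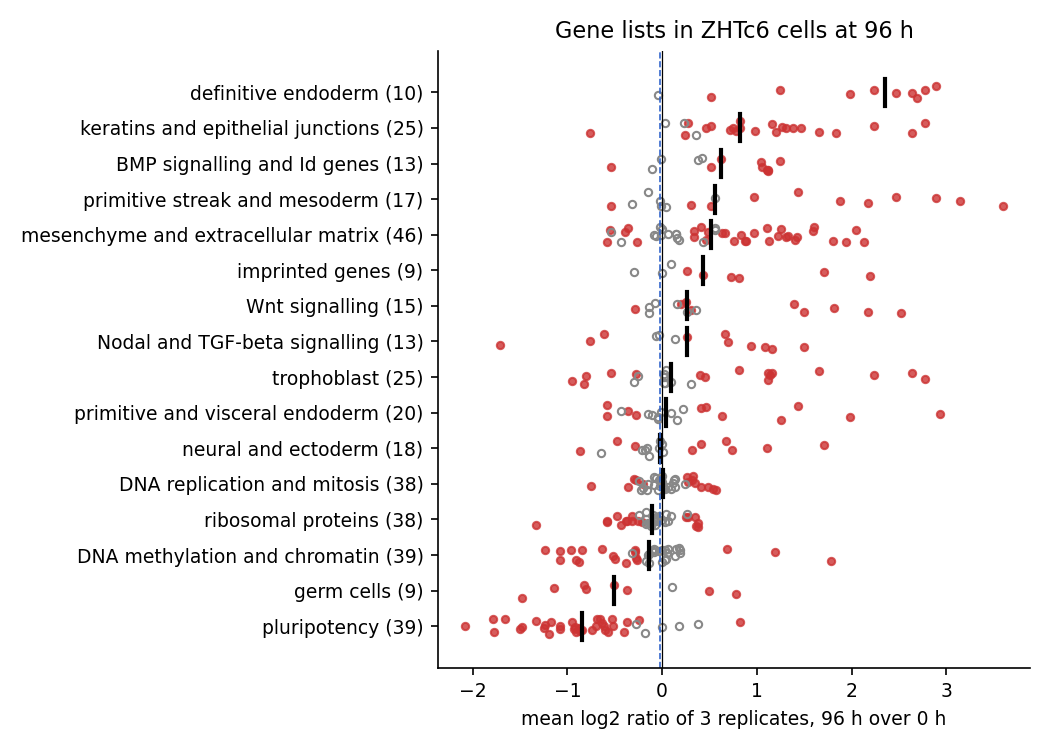
Log2 ratio of 96 h over 0 h (x axis, mean of 3 replicates) of the measured members of 16 gene lists (y axis, number measured in brackets), 1 point per gene, filled red where called and open grey where not, with a black bar for the median of the list and a dashed line for that of all features. The bar of definitive endoderm lies farthest to the right (2.35) and that of pluripotency farthest to the left (-0.85).

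Definitive endoderm had the highest median of all lists (2.35). This rank rests on names from the study's tables, since the annotation of the arrays alone names 1 of the members, *Sox17*, with -0.049. Of its 22 genes 10 were measured, of which 9 rose and none fell, and they include *Gsc* and *Lhx1* as well as 3 keratins that trophoblast also expresses. *Gata6*, a zinc finger factor of endoderm, measured 1.96, 2.19 and 1.80 (mean 1.98 ± 0.20, SD, n = 3, adjusted p = 0.000166). It read 1.26 with the 96 h RNA in Cy5 and 2.71 with it in Cy3, so that its direction was the same in both dyes and its size was not. *Tmprss2*, a serine protease of epithelia, measured 3.21, 2.14 and 2.73 (mean 2.69 ± 0.54, SD, n = 3, adjusted p = 0.000452). *Trh*, the precursor of thyrotropin-releasing hormone, rose by 1.24 (adjusted p = 0.00184). *Sox17*, a defining factor of this lineage, averaged -0.049 ± 0.086 (SD, n = 3, adjusted p = 0.678).

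Primitive endoderm lines the early blastocyst and becomes the yolk sac. Of its 39 listed genes 20 were measured, of which 7 rose, 4 fell and 9 were not called (median 0.043). *Amot*, the angiomotin that works in Hippo signalling, led with 3.07, 2.75 and 2.99 (mean 2.94 ± 0.17, SD, n = 3, adjusted p = 3.29e-05). Of the 4 measured among its 6 markers *Gata6* and *Pdgfra* rose, whereas *Gata4* averaged -0.15 (adjusted p = 0.165) and *Sox17* was not called either. *Lama1*, a laminin of its basement membrane, fell by 0.58 (adjusted p = 0.00853), though not in the Cy5 arrays alone (adjusted p = 0.0556). In a bulk culture fewer cells of a type and less RNA in each cell cannot be told apart, so that these values do not count cells.

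Genes of the signals that pattern the streak went in both directions. Over all named genes 35.7% rose and 16.1% fell. Among 42 Wnt genes 15 were measured, of which 8 rose, 1 fell and 6 were not called (median 0.27). The ligand *Wnt5b* measured 2.79, 2.27 and 2.51 (mean 2.52 ± 0.26, SD, n = 3, adjusted p = 0.000132) and its relative *Wnt5a* 1.71, 1.70 and 1.08 (mean 1.50 ± 0.36, SD, n = 3, adjusted p = 0.00241). *Wls*, which carries Wnt proteins to the cell surface, rose by 1.81 (adjusted p = 0.00016). The secreted Wnt inhibitor *Dkk1* rose with them, at 2.23, 2.13 and 2.17 (mean 2.18 ± 0.05, SD, n = 3, adjusted p = 0.000199). Of the receptors *Fzd10* averaged 1.39 (adjusted p = 0.000711), with 0.84 in Cy5, where it was not called alone (adjusted p = 0.059), and 1.94 in Cy3.

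Nodal and TGF-beta signalling keeps streak genes on. Of 30 genes 13 were measured, of which 7 rose, 3 fell and 3 were not called (median 0.27). *Lefty1*, a Nodal inhibitor that Nodal itself induces, measured 0.96, 1.21 and 1.10 (mean 1.09 ± 0.13, SD, n = 3, adjusted p = 0.000219). The ligand *Tgfb2* rose by 1.49 and the receptor *Acvr2a* by 0.69 (adjusted p = 0.000263 and 0.000807). *Inhbb*, a subunit of activins and inhibins, fell with -1.79, -1.80 and -1.56 (mean -1.72 ± 0.13, SD, n = 3, adjusted p = 0.000313), and so did the ligand *Gdf3* by 0.62. *Tdgf1*, the Nodal coreceptor Cripto, averaged 0.14 ± 0.086 (SD, n = 3, adjusted p = 0.413). Of the convertases that cut Nodal-type precursors, *Furin* rose by 1.16 and *Pcsk6* fell by 0.77.

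For FGF signalling 15 of 30 genes were measured, of which 7 rose, 4 fell and 4 were not called (median 0.09). *Fgf8*, a ligand of the streak, measured 2.01, 1.71 and 1.92 (mean 1.88 ± 0.15, SD, n = 3, adjusted p = 0.000152). *Dusp4*, a phosphatase of the pathway, rose by 1.68 and the receptor *Fgfr1* by 0.92. The inhibitor *Spry4* fell by 0.76 (adjusted p = 0.00112). For BMP signalling 13 of 23 genes were measured, of which 8 rose, 1 fell and 4 were not called (median 0.62). The receptors *Bmpr1a* and *Bmpr2* rose by 1.06 and 1.11, the signal carrier *Smad1* by 1.25 and the target *Id2* by 1.12, while the ligand *Bmp4* fell.

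LIF acts through Jak kinases and Stat3 to keep ES cells undifferentiated. Of 17 genes 12 were measured, of which 4 rose, 4 fell and 4 were not called (median -0.091). *Jak2* measured 2.84, 2.05 and 2.33 (mean 2.40 ± 0.40, SD, n = 3, adjusted p = 0.00032) and *Jak1* rose by 0.71. Among the members that fell were *Klf4*, as above, the kinase *Pim3* at -0.84 (adjusted p = 0.000277) and the feedback inhibitor *Socs3* at -0.63 (adjusted p = 0.000404).

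Genes of cell shape rose widely. Of 35 genes listed for keratins and epithelial junctions 25 were measured, of which 21 rose, 1 fell and 3 were not called (median 0.83). The keratins of simple epithelium led, with *Krt19* at 2.75, 2.68 and 2.90 (mean 2.78 ± 0.11, SD, n = 3, adjusted p = 3.29e-05) and *Krt8* at 2.54, 2.66 and 2.73 (mean 2.64 ± 0.10, SD, n = 3, adjusted p = 4.43e-05). *Krt18*, the partner of *Krt8* in the filament, rose by 2.23 (adjusted p = 4.07e-05). *Perp* and *Dsp*, both of desmosomes, rose by 1.84 and 1.66. The tight junction genes *Ocln* and *Tjp1* rose by 1.47 and 1.30.

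Mesenchyme and matrix genes rose beside these epithelial genes. Of 66 genes 46 were measured, of which 26 rose, 5 fell and 15 were not called (median 0.52, and 0.17 over the 30 members named by the annotation alone). *Cdh11*, a cadherin of mesenchyme, measured 2.64, 1.82 and 1.94 (mean 2.13 ± 0.44, SD, n = 3, adjusted p = 0.000563), with replicate 1 above the others. *Thbs1*, a matrix glycoprotein, rose by 2.05 (adjusted p = 0.00022). The contractile genes *Cald1* and *Cnn1* rose by 1.95 and 1.80, the collagen *Col5a1* by 1.60 and the filament gene *Vim* by 1.11. The basement membrane gene *Nid1* fell by 0.56 (adjusted p = 0.00431). Of the 4 measured among 14 genes of feeder fibroblasts only *Pdgfrb* was called, at 0.64 (adjusted p = 0.00106), and none of the 4 fibroblast markers was measured.

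Among the other largest rises were *Prss23*, a secreted protease, with 2.89, 2.55 and 2.92 (mean 2.79 ± 0.21, SD, n = 3, adjusted p = 8.61e-05), and *Enpp2*, the enzyme autotaxin, with 3.43, 2.13 and 2.64 (mean 2.73 ± 0.66, SD, n = 3, adjusted p = 0.00122). *Npm3*, a histone chaperone, had 3.41, 2.29 and 2.12 (mean 2.61 ± 0.70, SD, n = 3, adjusted p = 0.00887). Its replicate 1 stood above the other samples, and without it the mean was 2.21 and the call was lost (adjusted p = 0.0571). *Gbp4*, an interferon-inducible GTPase, measured 3.00, 2.62 and 2.83 (mean 2.82 ± 0.19, SD, n = 3, adjusted p = 0.000118), and *Psmb8*, a subunit of the immunoproteasome, 2.60, 2.56 and 2.61 (mean 2.59 ± 0.028, SD, n = 3, adjusted p = 3.29e-05).

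The largest falls of named genes were those of the metallothioneins, small proteins that bind zinc and other metals. *Mt2* measured -2.57, -2.50 and -2.54 (mean -2.54 ± 0.036, SD, n = 3, adjusted p = 3.29e-05) and *Mt1* -2.26, -2.23 and -2.16 (mean -2.22 ± 0.049, SD, n = 3, adjusted p = 5.64e-05). The 3 samples of each gene lay close together. The dyes went the same way in every pair, which was a condition for naming them as largest falls. Their neighbouring promoters hold the core of the metal response element, searched as TGCACNC or TGCGCNC on both strands, 3 times in *Mt1* (chr8:94179060-94179089, plus strand) and 4 times in *Mt2* (chr8:94172389-94172418, plus strand), and 1 match of each is shown because these genes fell most.
Mt1: ccgctgTGCACACtggcgctccagggagct
Mt2: cgcctcTGCACCCggcccctcgggccccgg
The core is short and stands at least once in 28.2% of all promoters, in 42.2% of those of named genes tested, in 44.1% of those called higher and in 43.4% of those called lower. As many matches as in *Mt1* or more are found in 2.27% of promoters, and as many as in *Mt2* or more in 0.588%.

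*Trib3*, a pseudokinase of the amino acid stress response, had -2.17, -1.68 and -1.95 (mean -1.93 ± 0.24, SD, n = 3, adjusted p = 0.000156). The other named genes among the largest falls were *Mreg* (-1.76), *Tmem191c* (-1.76), *Plekha4* (-1.71), the muscle myosin light chain *Mylpf* (-1.74) and a clone known as *M016E05* (-1.78), with adjusted p from 4.84e-05 to 0.000253. That all 6 arrays read below 0 was a condition for naming these genes as largest falls.

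**Figure D3:**
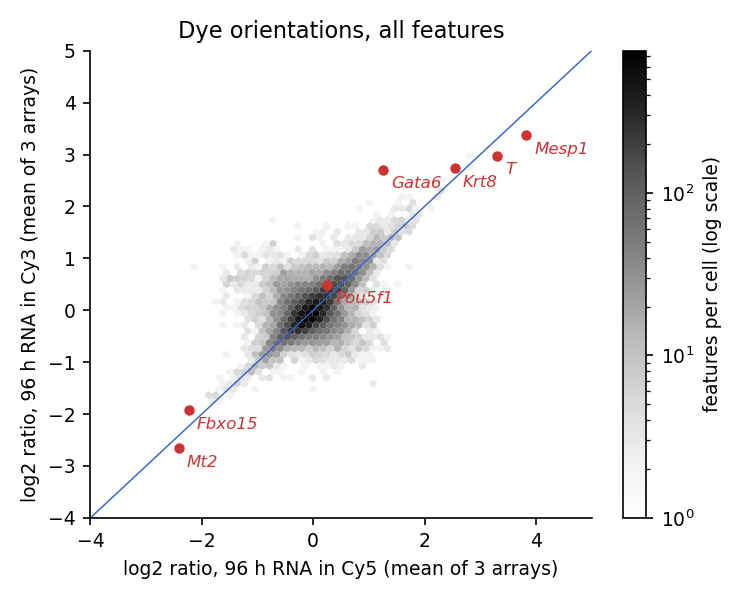
Mean log2 ratio of 96 h over 0 h in the 3 arrays with the 96 h RNA in Cy5 (x axis) against that in the 3 arrays with it in Cy3 (y axis), with all features counted in hexagonal cells whose grey gives their number on a log scale, 7 genes in red and a blue line of equal values. *Gata6* lies off the line, at 1.26 in Cy5 and 2.71 in Cy3.

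Trophoblast genes did not move together. Of 44 genes 25 were measured, of which 11 rose, 5 fell and 9 were not called (median 0.093, and -0.29 over the 6 members named by the annotation alone). The members that rose most were keratins and *Dsp*, which other epithelia share, followed by *Nrk*, a kinase of the placenta, at 1.14 (adjusted p = 0.000408). Of the defining factors *Gata3* was called at 0.40, 0.33 and 0.46 (mean 0.40 ± 0.067, SD, n = 3, adjusted p = 0.0279). It lost the call without replicate 1, 2 or 3 (adjusted p of 0.115, 0.0879 and 0.133), and read 0.10 in Cy5 alone. *Esx1*, *Hand1* and *Gata2* averaged 0.02, 0.037 and 0.017 and were not called. Of the 5 genes listed as markers of trophoblast, which leave out *Gata2*, 4 were measured, and *Gata3* alone was called. *Tfap2c*, a factor of trophoblast and germ cells, fell by 0.83 (adjusted p = 0.000205).

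For neural and ectoderm genes 18 of 53 were measured, of which 6 rose, 3 fell and 9 were not called (median -0.026). *Cpe*, a peptide-processing enzyme, rose most, with 1.75, 1.86 and 1.50 (mean 1.70 ± 0.18, SD, n = 3, adjusted p = 0.00016). *Otx2*, a factor of early epiblast and forebrain, fell by 0.86 (adjusted p = 0.0011). *Pax6*, the 1 neural marker measured, had -1.18, -0.64 and -0.11 and was not called (adjusted p = 0.104). Of 9 measured germ cell genes 6 fell, among them *Dppa3* at -1.48 and the X-linked homeobox genes *Rhox5* and *Rhox6* at -1.14 and -0.81, and 2 rose. None of the 4 measured Hox genes was called.

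Genes of DNA replication and mitosis went in both directions. Of 62 genes 38 were measured, of which 9 rose, 5 fell and 24 were not called (median 0.0049). Over all named genes 35.7% rose and 16.1% fell. Of 13 measured regulators of the step from G1 to S phase 5 rose, 4 fell and 4 were not called (median 0.27). *Cdkn1a*, the inhibitor p21, measured 1.23, 1.14 and 1.27 (mean 1.21 ± 0.064, SD, n = 3, adjusted p = 0.00161). The cyclin *Ccne1* fell by 0.52 (adjusted p = 0.000955). Among 13 measured genes of p53 and apoptosis 6 rose and none fell, with the BH3 gene *Pmaip1* at 1.62 and *Ccng1* at 1.12 beside *Cdkn1a* and *Perp*.

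Chromatin genes fell more often than they rose. Of 52 genes 39 were measured, of which 15 fell, 3 rose and 21 were not called (median -0.14). *Dnmt3l*, a cofactor of DNA methylation in germ cells, fell by 1.24, and *Tet1* and *Tet2*, which oxidise methylcytosine, by 1.08 and 1.08 (adjusted p of 9.4e-05, 0.0002 and 0.000268). The histone methylase *Suv39h1* rose by 1.78 (adjusted p = 0.000237). *Dnmt3l*, *Tet1* and *Tet2* stand in the pluripotency list as well, and 62 of the 431 measured list genes stand in more than 1 list. Of 9 measured imprinted genes 6 rose and none fell, with *Peg3* at 2.19, *Gnas* at 1.71 and *Igf2* at 0.82.

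Metabolic and stress genes were mixed. For the amino acid stress response 24 genes were measured, of which 7 rose, 9 fell and 8 were not called (median -0.11, and 0.45 over the 4 members named by the annotation alone). Members moved apart, with *Trib3* down, the factor *Atf3* up by 1.80, *Ddit4*, an inhibitor of mTOR, up by 1.57 and *Cth*, which makes cysteine, up by 1.25. Of 16 measured genes of glycolysis and hypoxia 7 rose, 4 fell and 5 were not called (median 0.19), and *Pfkp* fell by 1.37 (adjusted p = 0.000147). Of 38 ribosomal protein genes 6 rose and 11 fell (median -0.10), with *Rpl39* at -1.33 (adjusted p = 0.000802), and of 19 respiratory chain genes 2 rose and 6 fell.

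To see how 96 h differs from its neighbours in time, the ratios were compared with those of 72 h and 120 h. These time points were hybridised against the same 0 h RNAs, so that their values are given side by side. Against 72 h, 6610 features were called (32.1%), 3755 higher (18.2%) and 2855 lower (13.9%). Without replicate 1, 2 or 3 there were 3785, 3137 and 2190. Of the streak and mesoderm list 9 members were higher at 96 h and 2 lower, of definitive endoderm 7 and 0, of keratins and junctions 17 and 0, of mesenchyme and matrix 24 and 3, and of pluripotency 7 and 6. The median difference was 0.80 for definitive endoderm, 0.61 for keratins and junctions and -0.10 for pluripotency.

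*Lhx1* stood at 0.48, 0.91 and 0.25 at 72 h and had the widest margin of the genes named here (difference 1.92, SE 0.54, adjusted p = 0.0277). It lost the call without replicate 1 or 3 (adjusted p of 0.0514 and 0.188). *Cdh11* had 0.46, 0.22 and 0.20 at 72 h (difference 1.84, SE 0.35, adjusted p = 0.00554), and without replicate 3 its adjusted p was 0.075. *Gbp4* went from 1.04, 0.89 and 1.22 to values that no sample of 72 h reached (difference 1.77, SE 0.16, adjusted p = 0.000346). *Dkk1* had 0.35, 0.45 and 0.63 at 72 h (difference 1.70, SE 0.21, adjusted p = 0.000922), and its 3 samples at 96 h likewise lay above all 3 at 72 h. *Gbp4* and *Dkk1* were picked by this difference, so that the gap between the days is part of their choice. *Mesp1* differed by 1.70, SE 0.29, adjusted p = 0.00338 and *Jak2* by 1.63, SE 0.30, adjusted p = 0.00522, and without replicate 3 both missed the threshold (adjusted p of 0.0632 and 0.0902), as did *Mesp1* with scaled arrays, where its difference was 0.90 (adjusted p = 0.0812). *T* and *Krt8* were higher than at 72 h by 1.49 and 0.79 (adjusted p of 0.000715 and 0.00029).

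In the other direction *Cbr3*, a carbonyl reductase, stood above 0 in all 3 samples at 72 h (0.52, 0.43 and 0.45) and below it in all 3 at 96 h (-0.84, -0.68 and -0.84, difference -1.25, SE 0.19, adjusted p = 0.00201). *Plk3*, a polo-like kinase, had -0.46, -0.22 and -0.40 at 72 h and -1.51, -1.35 and -1.31 at 96 h (difference -1.03, SE 0.084, adjusted p = 0.000255). *Utf1* fell from -0.33, -0.42 and -0.43 to -1.21, -1.20 and -1.18 (difference -0.80, SE 0.057, adjusted p = 0.000185). In these genes, which were picked by this difference, the samples of both time points did not overlap. *Rpl39l*, a near copy of *Rpl39*, differed by -0.97 and *Gm9564* by -0.86. *Csgalnact1*, which starts chondroitin sulfate chains, differed by -0.85 (adjusted p = 0.0478), but its dyes disagreed at 96 h (-1.07 in Cy5 and 0.97 in Cy3) and the call was lost without replicate 1, 2 or 3 (adjusted p of 0.237, 0.0653 and 0.145) and with the replicate number as a block (adjusted p = 0.0545). *Nanog* was higher at 96 h than at 72 h, where it stood at -0.78, -0.96 and -0.55 (difference 0.48, SE 0.10, adjusted p = 0.00767).

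**Figure D4:**
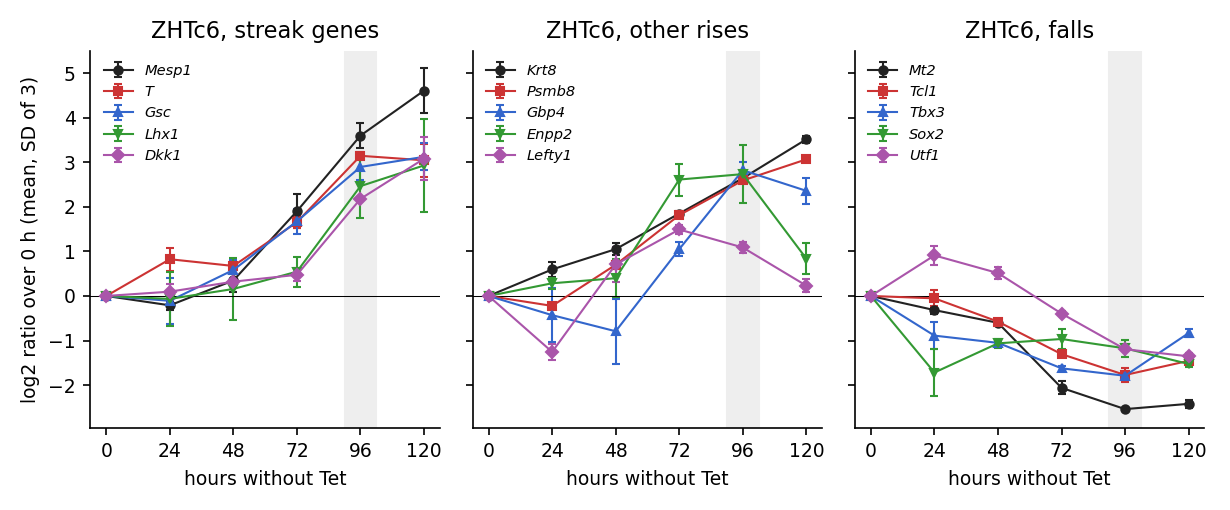
Log2 ratio over 0 h (y axis) against hours without Tet (x axis) in ZHTc6 cells for 15 genes in 3 panels, with the mean and SD (error bars) of 3 samples at each time, 0 at 0 h by definition and 96 h shaded. *Mesp1* reads 1.90, 3.60 and 4.61 on the last 3 days, and *Enpp2* comes down between 96 and 120 h.

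Against 120 h, 4872 features were called (23.6%), 2495 higher at 96 h (12.1%) and 2377 lower (11.5%). This count rests on few samples. It was 2361 without replicate 1, 1214 without replicate 2 and 23 without replicate 3. The labels of 1 array pair at 120 h name sample 2 for the time point and sample 1 for 0 h. It was taken as replicate 1, and counted as sample 2 it left 4581 called features. At 120 h 7 streak and mesoderm members were higher than at 96 h and 1 lower, 10 and 5 of keratins and junctions, and 4 and 18 of pluripotency, where *Nanog* stood at -0.92, -0.87 and -0.97 (difference of 96 h over 120 h 0.64, SE 0.10, adjusted p = 0.00381).

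*Enpp2* stood at 3.01, 2.50 and 2.32 at 72 h and 3.43, 2.13 and 2.64 at 96 h, and at 1.22, 0.73 and 0.56 at 120 h (difference 1.90, SE 0.34, adjusted p = 0.0066), with an adjusted p of 0.118 without replicate 3. *Slc27a2*, a carrier and activator of fatty acids, had 1.07, 0.88 and 0.87 at 96 h and -0.84, -0.61 and -0.80 at 120 h (difference 1.69, SE 0.082, adjusted p = 0.000149). All 3 of its samples changed sign between these days. *Selenof*, a selenoprotein of the endoplasmic reticulum, had 1.00, 0.96 and 0.97 at 96 h and lay near or below 0 at 72 h (-0.20, -0.15 and 0.059) and 120 h (-0.46, -0.37 and -0.51). It was higher at 96 h than on either side (adjusted p of 0.000178 and 0.000177). *Zscan4c*, a gene of a rare state of ES cells, averaged -0.53 at 96 h and -1.73 at 120 h. *Bmerb1* and *Cacybp* were also higher than at 120 h, by 1.33 and 1.23, and without replicate 3 the adjusted p of *Bmerb1* was 0.0734.

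Of the genes that stood higher at 120 h, *S100a6*, a calcium-binding protein, went from 0.64, 0.64 and 0.97 to 2.19, 2.19 and 2.34 (difference of 96 h over 120 h -1.49, SE 0.11, adjusted p = 0.000384). *Lgals3*, a galectin, went from 0.78, 0.74 and 0.81 to 2.28, 1.99 and 2.28 and *Hs3st3b1*, a heparan sulfate enzyme, from 0.12, 0.30 and 0.34 to 1.66, 1.63 and 1.73. In all 3 genes, which were picked by this difference, the samples at 120 h lay above every sample at 96 h. *Pmp22*, a membrane protein, rose from 2.27 to 3.56, and *Usp18*, a protease of the interferon response, from 0.89 to 2.38. *Trib3* went back from -1.93 to -0.49. Without replicate 3 the adjusted p of *Lgals3*, *Hs3st3b1*, *Trib3*, *Usp18* and *Pmp22* were 0.0539, 0.0544, 0.0719, 0.173 and 0.171.

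Over the 3 days 633 features (3.07%) were higher at 96 h than at 0, 72 and 120 h and 926 (4.49%) were lower than at all of them. These counts were 217 and 211 without replicate 1, 95 and 44 without replicate 2, and 1 and 0 without replicate 3. Among the named genes of the first kind was *Car2*, a carbonic anhydrase, with 2.40, 2.20 and 2.22 at 96 h against means of 1.31 at 72 h and 1.75 at 120 h. It was chosen after its values were seen. *Mt1* was of the second kind, with means of -1.76, -2.22 and -1.99.

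The last comparison set induction against loss of Oct3/4 after the same 96 h, each line against its own 0 h RNA. The lines differed in 6996 features (34%), of which 3732 were higher in ZHTc6 (18.1%) and 3264 lower (15.8%). In 732 features the ratio rose in ZHTc6 and fell in ZHBTc4, and in 337 it went the other way round, with each line and the difference called. Of the pluripotency list 33 members were higher in ZHTc6 and 2 lower, of Nodal and TGF-beta 9 and 0, of amino acid stress 18 and 1, of ribosomal proteins 22 and 1, and of trophoblast 2 and 20. The median difference was 1.57 for pluripotency, 1.23 for amino acid stress, 0.56 for ribosomal proteins and -2.02 for trophoblast.

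*Sox2* fell in both lines and by far less in ZHTc6, with -5.57, -5.61 and -5.55 in ZHBTc4 (difference 4.40, SE 0.11, adjusted p = 1.2e-05). *Utf1* fell in both with overlapping samples, at -1.21, -1.20 and -1.18 and -1.21, -1.48 and -1.18, and their difference was not called (difference 0.093, SE 0.10, adjusted p = 0.522). *Tbx3* likewise averaged -1.79 and -1.74 (difference -0.055, SE 0.08, adjusted p = 0.646). *Lefty1*, *Cth*, *Cpe* and *Trh* rose in ZHTc6 and fell in ZHBTc4. *Lefty1* stood at -3.94, -3.77 and -3.78 there (difference 4.92, SE 0.10, adjusted p = 8.39e-06), *Cth* at -3.61, -3.51 and -3.80 (difference 4.89, SE 0.10, adjusted p = 8.39e-06) and *Cpe* at -3.78, -3.46 and -3.49 (difference 5.28, SE 0.13, adjusted p = 1.2e-05). *Tdgf1* was not called in ZHTc6 and stood at -4.12, -4.15 and -4.71 in ZHBTc4 (difference 4.47, SE 0.17, adjusted p = 2.93e-05).

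*T* stood at 0.00079, -0.11 and 0.063 in ZHBTc4, around 0 (difference 3.16, SE 0.084, adjusted p = 1.24e-05). *Mesp1* and *Gsc* averaged -0.23 and -0.74 there, and both were called higher in ZHTc6. The streak list as a whole was less divided. Of its 17 measured members 6 were higher in ZHTc6 and 2 lower, and of 10 of definitive endoderm 4 and 4. The median differences were 0.36 and -0.075. *Dkk1* rose in both and more in ZHBTc4, with 4.03, 3.63 and 3.29 (difference -1.47, SE 0.18, adjusted p = 0.00158). *Jak2* stood at 2.46, 3.06 and 2.65 (difference -0.32, SE 0.24, adjusted p = 0.372) and *Amot* at 3.19, 3.14 and 3.20 (difference -0.24, SE 0.10, adjusted p = 0.116), and neither difference was called. The keratins rose in both lines and more in ZHBTc4, where *Krt8* stood at 5.12, 4.89 and 4.77 (difference -2.28, SE 0.11, adjusted p = 6.09e-05).

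Placental genes were among those with the largest differences in favour of ZHBTc4. *Rhox6* fell in ZHTc6 and stood at 5.20, 5.0 and 4.69 in ZHBTc4 (difference -5.77, SE 0.16, adjusted p = 1.27e-05). *Nrk* rose in both, to 5.61, 5.91 and 5.70 in ZHBTc4 (difference -4.60, SE 0.12, adjusted p = 1.24e-05). *Gata2* and *Gata3* stood at 4.61, 4.26 and 4.35 and at 4.89, 4.37 and 4.79 there (differences of -4.39 and -4.29, adjusted p of 1.37e-05 and 2.19e-05). These 4 genes were picked by this difference, so that the gap between the lines is part of their choice. *Exoc3l4* and *Dppa1* were not called in ZHTc6 and differed by -4.31 and -4.15. *Mt2* rose in ZHBTc4, with 0.56, 0.34 and 0.37 (difference -2.96, SE 0.086, adjusted p = 1.37e-05), and *Mt1* fell less there, with a mean of -0.37.

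**Figure D5:**
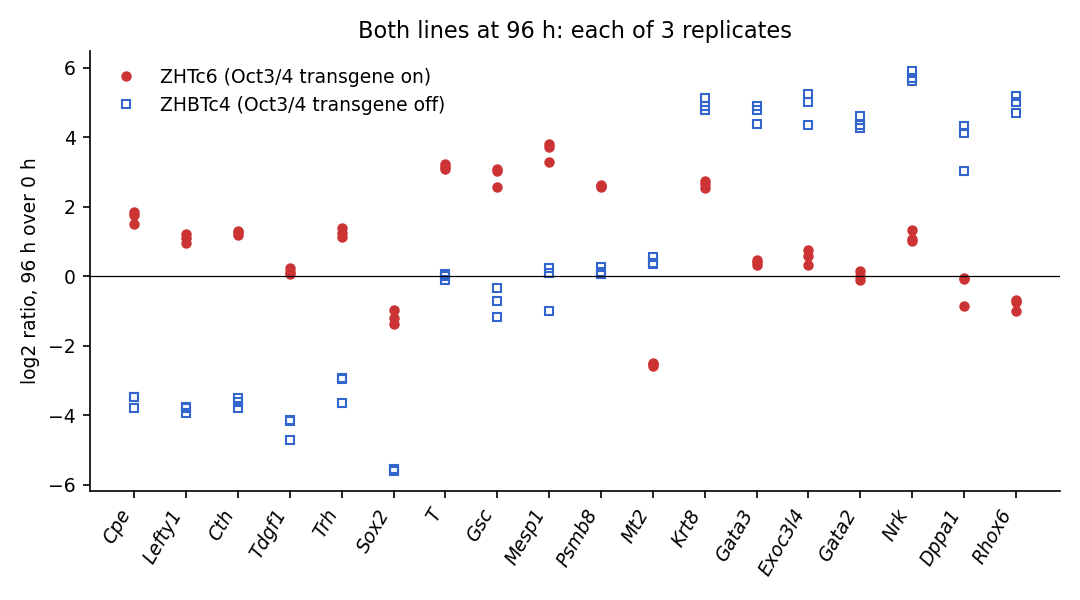
Log2 ratio of 96 h over 0 h (y axis) for 18 genes (x axis) in each of the 3 replicates of ZHTc6 cells (red circles, transgene on) and of ZHBTc4 cells (blue squares, transgene off). The symbols of the lines do not overlap in any of these genes, with means of 3.14 and -0.015 for *T*, 2.64 and 4.92 for *Krt8* and -1.18 and -5.58 for *Sox2*. Among them are the 6 genes with the largest difference each way, which were picked by this contrast.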

How the data were processed

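RNA of each time point was hybridised by the authors against 0 h RNA of the same line on 60-mer oligonucleotide arrays, and they deposited the log10 ratio of the Cy5 to the Cy3 signal, made with Agilent Feature Extraction (its version is not given in the sources used here) and bounded at -2 and 2. Background and dye correction are thus already in them. The other 9 arrays of the series were not used, and without intensities no filter on weak signal could be applied, so that the number of arrays limits the precision.

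Both arrays of a dye-swapped pair were set to the same direction on the log2 scale and averaged. Of 22575 rows 215 below oligo 216 were left out, as were 212 that sat at a bound on over 0.5 of all arrays, and oligos of one gene were averaged. The array annotation named an oligo if it lists 1 gene for it (4265 rows), and other names came from the study's tables, which were available in part. Some of these tables list genes that the study picked for their change on these same arrays. Such genes were more likely to carry a name here, so that counts over named genes and lists are a description. The name *T* is that of the study against the annotation. Both lines at 96 h, or ZHTc6 at 72, 96 and 120 h, were fitted with limma 3.58.1 in R 4.3.3 (with statmod 1.5.0 and version 1.17.8 of data.table) at an adjusted p under 0.05. Per the labels, ZHTc6 ratios of one number share their 0 h RNA, which ties them, and their deviations correlated with 0.0732 to 0.369 between 72 and 120 h (median of different numbers -0.0504). The lines share no RNA, and their deviations correlated with 0.00821 to 0.0771. On simulated data the test of 96 h over 0 h recovered 43% of changes of 0.5 and 88% of changes of 1 (log2) among 20606 features. The contrast of the lines recovered 12% and 59%, so that a difference not called there may still exist. The simulated samples were independent and 100 features changed at each size, far fewer than were called in the data.

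Named genes are *Pou5f1*, the 12 largest rises and falls called with all 6 arrays one way, up to 6 members of each of 26 lists by size of change, the 6 largest differences each way in each other comparison, and genes the study names. Other names were chosen after their values were seen, as the text states. The members and lists were chosen with earlier results of these data known.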

Additional observations from a re-analysis of the deposited data

Results flagged for a closer look

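Results were listed here when the change at 96 h differed between ZHTc6 and ZHBTc4 cells by the contrast of the lines in limma. With 3 samples in a group no sample could be tested for standing apart. The contrast called 6996 features, and in 1069 of them the lines went in opposite directions. Of the 141 named genes of the text 106 differed, beside 34% of all features. Many of these genes were picked by the size of their change or by this contrast, so that their count is a description. The largest differences in favour of ZHTc6 were those of *Cpe* (5.28), *Lefty1* (4.92), *Cth* (4.89), *Tdgf1* (4.47), *Trh* (4.42) and *Sox2* (4.40), of which *Sox2* fell in both lines. The largest in favour of ZHBTc4 were those of *Rhox6* (-5.77), *Nrk* (-4.60), *Gata2* (-4.39), *Exoc3l4* (-4.31), *Gata3* (-4.29) and *Dppa1* (-4.15). Each line is 1 clone with its own 0 h RNA and its own Tet regimen, so that the direction of Oct3/4, the clone and Tet itself cannot be told apart.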

How the results depend on the processing

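Centring the arrays, scaling them (9465 called features), either dye alone, ZHTc6 fitted alone (9501), keeping bounded rows or the first oligo of a gene left the count of 96 h over 0 h within 1.5 times of 7149. Leaving out 1 sample gave 3585 to 3918 for 96 h over 0 h, 2190 to 3785 against 72 h and 23 to 2361 against 120 h, with fewer samples in each fit, and 4899 to 5357 between the lines. Of features higher or lower at 96 h than at 0, 72 and 120 h it left 1 to 217 and 0 to 211. Without replicate 3 limma called 23 features against 120 h, with 4829 at an unadjusted p under 0.05. All 5 time points in one fit called 2560 features against 72 h and 1115 against 120 h, and the cause was not tested. For 96 h over 0 h that fit called 7167 features, and 7181 with the replicate number as a block. The block gave 7613 features against 72 h and 5829 against 120 h. Of the genes named for these days it changed the call of *Csgalnact1*. Between the lines, whose samples share a number alone, it gave 5795. With names from the annotation alone 128 list genes were called in place of 256, since fewer genes carried a name.

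With names from the annotation alone several list medians changed sign or size. They were -0.45 for pluripotency, 0.17 for mesenchyme and matrix, -0.049 for primitive and visceral endoderm and for definitive endoderm (1 gene), -0.29 for trophoblast, -0.041 for G1/S regulators, -0.20 for p53 and apoptosis, 0.45 for amino acid stress, 0.027 for ribosomal proteins, -0.070 for endothelium and blood and -0.098 for feeder fibroblasts. Under other settings the median of feeder fibroblasts was -0.0014 without replicate 1, that of amino acid stress 0.044 in Cy3 alone, that of replication and mitosis -0.029 in Cy5 alone and -0.0052 with the first oligo, and that of neural genes 0.029 with the first oligo. Genes whose sign turned were uncalled at 96 h. In Cy3 alone *Sox17* read 0.0091, *Gata2* -0.0014, *Csgalnact1* 0.97 and *Bmerb1* -0.0072, in Cy5 alone *Esx1* read -0.014, and with the first oligo *Gata4* read 0.13. Leaving out 1 sample moved *Gata2* from -0.053 to 0.076, *Esx1* from -0.075 to 0.13 and *Csgalnact1* from -0.33 to 0.16.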

Other observations

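A group of genes for which no list was made rose beside *Gbp4* and *Psmb8*. They answer to interferon or prepare antigens for display on class I molecules, and were gathered after their values were seen, so that their counts are a description. Of 19 such named genes 15 rose, 1 fell and 3 were not called (median 1.05). *Gbp2*, a GTPase like *Gbp4*, measured 2.48, 2.67 and 2.45 (mean 2.54 ± 0.12, SD, n = 3, adjusted p = 3.29e-05). *B2m*, the light chain of class I molecules, measured 1.84, 1.74 and 1.64 (mean 1.74 ± 0.10, SD, n = 3, adjusted p = 5.08e-05), and *Psmb10*, a second subunit of the immunoproteasome, 1.76, 1.63 and 1.79 (mean 1.73 ± 0.089, SD, n = 3, adjusted p = 4.84e-05). The samples lay close together in all 3 genes. *Psme2*, an activator of the proteasome, rose by 1.61, *Irf1*, an interferon regulatory factor, by 1.53 and *Ifngr1*, a chain of the interferon gamma receptor, by 1.12. The peptide transporters *Tap1* and *Tap2* rose by 1.05 and 1.39 (adjusted p of 0.00623 and 0.00664), and *Tap2* was not called in the Cy5 arrays alone (adjusted p = 0.138). Of 7 other core subunits of the proteasome 0 rose, 1 fell and 6 were not called (median -0.11). In ZHBTc4 cells at 96 h *Psmb8* stood at 0.13, 0.064 and 0.27 (difference 2.43, SE 0.081, adjusted p = 2.18e-05) and *Irf1* at -0.87, -0.63 and -0.58 (difference 2.23, SE 0.10, adjusted p = 4.06e-05). *B2m* stood at 1.69, 1.60 and 1.71 there and its difference was not called (0.076, SE 0.083, adjusted p = 0.527). Of the other members named in the text *Gbp2*, *Gbp4*, *Psmb10* and *Tap2* were also called higher in ZHTc6. The differences of *Psme2*, *Ifngr1*, *Tap1* and *Usp18* were not called (adjusted p of 0.206, 0.0634, 0.14 and 0.449).

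Zinc transporters were looked at beside the metallothioneins, likewise after the values of *Mt1* and *Mt2* were known. Of 12 named genes of both kinds 6 rose, 5 fell and 1 was not called. Besides *Mt1* and *Mt2* the falls were those of *Slc39a4* at -0.94, *Slc39a14* at -0.79, which both import zinc, and *Slc30a2* at -0.70, which moves it into vesicles (adjusted p of 0.000211, 0.000465 and 0.00129). The largest rise was that of *Slc30a7*, a zinc transporter of the Golgi, with 1.55, 1.29 and 1.22 (mean 1.35 ± 0.17, SD, n = 3, adjusted p = 0.00206).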
